A study of Homo sapiens with 6 samples.

Results

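The Nudix hydrolases examined here were NUDT1, NUDT2, NUDT3, NUDT5, NUDT12, NUDT16, NUDT19, the NUDT16 paralogue NUDT16L1 and the NUDT16 pseudogene NUDT16P1. They were taken by their gene names in the array files, which gave 11 probes for 9 of the 36337 gene names measured. The RNA came from MOLT-4, a human T-cell leukaemia line, transfected with an empty vector (mock, n = 3 arrays) or with NUDT16 (n = 3 arrays). It was immunoprecipitated through its m3G or m7G cap and read on 1-colour expression arrays, so each signal is that of RNA recovered by its cap. RNA from before the precipitation was not analysed here, and lower abundance and weaker recovery by the cap cannot be told apart. Nothing in the labels says that the arrays of a group came from separate transfections, so p-values measure only the spread between these arrays.

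Nudix enzymes share a short sequence motif and cleave a nucleoside diphosphate from whatever it is linked to, which ranges from oxidised nucleotides and coenzymes to the 5′ cap of RNA. NUDT16 removes caps from RNA and was first studied on the U8 small nucleolar RNA. NUDT16L1, also called TIRR, resembles it but lacks its catalytic residues and binds the DNA-repair protein 53BP1. NUDT16P1, now NUDT16L2P, is a transcribed pseudogene related to NUDT16 and lies beside it on chromosome 3.

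Detection set what could be measured. Between 39.3% and 51.1% of the 58717 spots for cell RNA were well above background on the mock arrays. The values were 42.3% and 52.0% on NUDT16 replicates 1 and 3 and 14.6% on NUDT16 replicate 2, which stood apart. Each slide carried the mock and the NUDT16 array of one replicate number, and same-numbered arrays deviated together. Of 10 T-lineage marker genes, 8 were well above background on every mock array and 6 on all 6 arrays. The B-cell marker CD79A was too on every mock array, as were KRT8 and KRT18 of 4 epithelial markers. Of 4 myeloid markers 0 were, but CD14 was detected on 2 mock and 2 NUDT16 arrays. PAX5, MPO and EPCAM were detected on 0 arrays. Unless another scale is named, a value is a log2 signal minus that of its array's 75th percentile, and a difference is NUDT16 minus mock. On NUDT16 replicate 2 this percentile was an intensity of 8.57, below that array's lowest well-above-background intensity of 19.5. Its normalised values are therefore scaled to signal at background, and differences in the pair of replicate 2 are less comparable with the others.

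Of the 11 Nudix probes, 6 were tested, having been well above background throughout one group or both: one each for NUDT1, NUDT2, NUDT3, NUDT5, NUDT16L1 and NUDT16P1. The other 5, for NUDT12, NUDT19, NUDT16 itself and a second site of NUDT16P1, were not well above background on any array. With limma and Benjamini-Hochberg adjustment over all 17765 tested probes, 1 of the 6 passed the 0.05 threshold: a NUDT16P1 probe, whose signal rose. It was also the sole call over all probes, where the share called was 0.00563%. This probe entered the test only through the NUDT16 arrays, where it is high, and it was not called when all probes were tested. Whether its signal came from NUDT16P1 RNA or from the transfected NUDT16 was not tested and cannot be told apart from these values.

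The 2 NUDT16P1 probes and the 2 NUDT16 probes are shown with a neighbouring probe because they gave different readings of one chromosomal region. Sequences are those of the array files, 5′ to 3′, and capitals mark the longest run of A and T in the 60-base probe. The detected NUDT16P1 probe is given whole, and a 30-base stretch is given of the others.
NUDT16P1 A_21_P0012400, bases 1 to 60: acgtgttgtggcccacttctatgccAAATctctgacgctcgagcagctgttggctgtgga
THC2710983 A_33_P3281041, bases 31 to 60: TTggattgaggtccccgtctgtcagaactt
NUDT16P1 A_24_P626981, bases 1 to 30: agTTTTTTAAAAAATATTTTctaacattga
NUDT16 A_21_P0000085, bases 1 to 30: tcttgtgtaggagatgtggccctgATATTT
NUDT16 A_23_P310560, bases 31 to 60: tgtccacttattcgTATTAAATTTgctttt
In THC2710983 part of its run of 5 lies outside the bases shown. The detected NUDT16P1 probe has 55.0% G and C and no A/T run over 4 letters, whereas the second NUDT16P1 probe has 20.0% G and C and an A/T run of 18.

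The detected NUDT16P1 probe, A_21_P0012400 (NR_027766), lies on chromosome 3 at positions 131081189 to 131081248 of hg19. On the linear scale its background-subtracted intensity was 11.2, -5.60 and 1.30 on mock replicates 1, 2 and 3. On NUDT16 replicates 1, 2 and 3 it was 1381, 23.9 and 1647. Every NUDT16 array was above every mock array, including the dim NUDT16 replicate 2, where the probe was still well above background. Such separation upward was found for 0.332% of the tested probes, a set that this probe joined only through its NUDT16 arrays. Of 50586 probes it was the 1 detected in all NUDT16 arrays and in no mock array (0.00198%).

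The mock level of this probe was not the same on all mock arrays. On mock replicate 1 its background-subtracted intensity lay above 100% of the negative-control spots, on mock replicate 3 above 94.0% and on mock replicate 2 above 19.7%. None of these values was well above background, so the fold has only a lower bound. Against each mock array's lowest well-above-background signal, normalised signal was at least 63.1-fold and 50.1-fold higher in the pairs of replicates 1 and 3. In the pair with the dim array normalised signal was 12.1-fold higher. Before scaling, NUDT16 replicate 2 read 23.1, against a lowest well-above-background intensity of 20.4 on mock replicate 2. The 75th percentiles of these arrays were 8.57 and 91.7. The 12.1-fold thus rests on the scaling and is not a firm bound. Neither is the 33.7-fold of the group means, which includes it. On mock replicates 2 and 3 the processed intensity of this probe was a surrogate value, which the scanner software gives to dim spots. The difference of normalised values, which rests partly on these, was 7.001 (SE 0.63, limma adjusted p 0.00077, higher in 3 of 3 pairs). Because the probe entered the test only through its high NUDT16 arrays, neither this p nor the permutation p is independent of the filter. The exact two-sided permutation p of this difference was 0.1, the smallest that 3 arrays against 3 can give. With normexp background correction it was 3.42 and not called, and it was not called without scaling, without the filter or in the authors' deposited value table either.

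Probes a short distance away did not follow it. The second NUDT16P1 probe, A_24_P626981 (NR_002949, positions 131083311 to 131083370), is assigned by the array files to both pseudogene transcripts, NR_002949 and NR_027766, as is the detected probe. Its background-subtracted intensity was -0.643, -4.86 and 3.32 in mock, against -11.4, -5.85 and -8.06 in NUDT16 arrays. No array detected it. On mock replicates 1, 2 and 3 it lay above 92.9%, 26.7% and 98% of the negative-control spots. On NUDT16 replicates 1, 2 and 3 it lay above 22.3%, 9.56% and 42.8%, so by this measure the groups overlapped. None of the values was well above background, and on the normalised scale the groups overlapped. Probes as poor in G and C as this one were rarely detected: of 226 probes with 20% to 25% G and C, 12.4% were well above background on all mock arrays and 0.442% on all NUDT16 arrays. For the 5302 probes with 55% to 60%, the class of the detected probe, the shares were 40.2% and 19.9%.

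A probe named THC2710983 (A_33_P3281041, positions 131081332 to 131081391, same strand) starts 83 bases beyond the end of the detected probe. The array files describe its transcript as matching 70% of the NUDT16 protein. Its background-subtracted intensity was 39.7, 10.5 and 29.2 on mock replicates 1, 2 and 3 and 44.2, -0.184 and 39.9 on NUDT16 replicates 1, 2 and 3. It was well above background on replicates 1 and 3 of both groups and on neither array of replicate 2, and the groups overlapped. Its differences of normalised log2 values were 0.53 and -0.09 in the pairs of replicates 1 and 3. Those of the detected NUDT16P1 probe were 7.35 and 7.85, resting on undetected mock signal, with lower bounds of 63.1-fold and 50.1-fold. In the pair of replicate 2, where neither array detected THC2710983, its difference was 2.13. The probe was outside the test because it was not detected on all 3 arrays of either group. Within 250 kb of the detected probe the array holds 14 other probes for 11 names. Of these 2 could be tested, for MRPL3, a mitochondrial ribosomal protein gene (-0.32, SE 0.57), and SNORA58, a small nucleolar RNA (-0.58, SE 0.70), and 0 were called (limma adjusted p 0.999 for each).

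**Figure D1:**
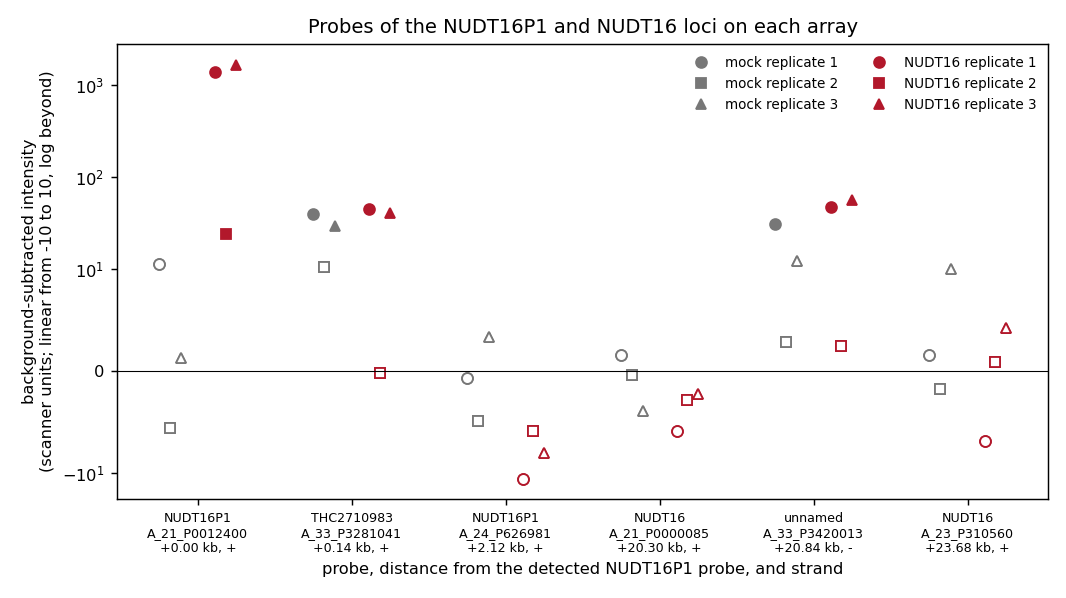
Background-subtracted intensity (scanner units, linear within 10 units of 0 and logarithmic beyond) of 6 probes of the NUDT16P1 and NUDT16 loci on the 3 mock (grey) and 3 NUDT16 (red) arrays, with distance from the detected NUDT16P1 probe and strand under each name. Open symbols were not well above background. Not drawn are the probes of LOC339874 and XLOC_l2_009889, at distances of -35049 and 7862 bases, which no array detected. The first probe separates the groups, at 1381, 23.9 and 1647 against at most 11.2. The second NUDT16P1 probe has every symbol open in both groups, and the remaining 4 probes overlap between groups.

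NUDT16, the transfected decapping enzyme, was not read by either of its probes. A_21_P0000085 (NM_001171906, chromosome 3, positions 131101493 to 131101552) had background-subtracted intensities of 1.54, -0.416 and -3.90 in mock, against -5.91, -2.86 and -2.29 in NUDT16 arrays. A_23_P310560 (NM_152395, positions 131104865 to 131104924) had 1.59, -1.80 and 9.96 in mock, against -6.85, 0.831 and 4.19 in NUDT16 arrays. For both probes the highest value was on a mock array. The first lay between the 33.1 and 95.9 percentiles of the negative-control spots, and the second between 53.4 and 100. No fold is given, since both groups were at background.

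These probes lie 20304 and 23676 bases beyond the detected NUDT16P1 probe, at positions 781 and 3307 of their transcripts. Neither shares a run of more than 8 letters with it, which says nothing about the rest of the NUDT16 transcript. Another probe in the same stretch, A_33_P3420013 (positions 131102028 to 131102087), has no gene name in the array files and lies on the opposite strand, so it does not read NUDT16 RNA in the sense direction by design. Its background-subtracted intensity was 30.9, 2.80 and 12.3 in mock, against 46.6, 2.40 and 55.2 in NUDT16 arrays, with overlapping groups. The sequence of the NUDT16 insert was not used here, and a planned match of the probes to the proteins of the family was not made. Whether it pairs with the detected NUDT16P1 probe, or contains the sites of the NUDT16 probes, was not tested, so the labels were not checked by NUDT16 signal itself.

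One other probe on the array shared a run of at least 15 letters with the detected NUDT16P1 probe. It belongs to GUSBP11, a pseudogene of beta-glucuronidase, and was well above background on 6 arrays. Its difference was 0.42 (SE 0.65, limma adjusted p 0.999).

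NUDT16L1 had the largest difference in size of the 5 tested members that were not called. Its probe, A_23_P49429 (NM_032349, chromosome 16, positions 4745528 to 4745587), was detected on 6 arrays. The normalised signal was 3.44, 2.47 and 1.47 on mock replicates 1, 2 and 3 and 4.24, 3.55 and 2.14 on NUDT16 replicates 1, 2 and 3. The NUDT16 array was the higher one in each pair, but the groups overlapped, with SDs of 0.98 in mock and 1.07 in NUDT16. The difference was 0.85 (SE 0.72, 95% interval -0.71 to 2.41, limma adjusted p 0.999), and without scaling it turned to -0.24. It was 0.35 without mock replicate 3 and 0.38 without NUDT16 replicate 1, against 1.34 without mock replicate 1 and 1.43 without NUDT16 replicate 3.

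When replicate number entered as a block, the interval for NUDT16L1 narrowed to 0.14 to 1.56. Its unadjusted limma p was then 0.026 and its adjusted p 0.482, so it was not called, and 7.96% of all tested probes had an unadjusted p under 0.05. A fit on the pairs of replicates 1 and 3 alone, chosen after the data were seen, called 2.73% of 22387 probes and not NUDT16L1 (0.73, limma adjusted p 0.23; range over its alternatives 0.23 to 1). Being higher in 3 of 3 pairs was common, at 20.2% of tested probes. NUDT1, NUDT2 and NUDT16P1 shared it.

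The signal of NUDT16L1 followed the replicate number closely, and so did that of many other probes. The 3 tested probes most like it over the 6 arrays were C7orf40, now SNHG15, a small nucleolar RNA host gene (Pearson's r 0.999), the unnamed probe A_24_P375683 (r 0.998) and AGPAT2, an enzyme of phospholipid synthesis (r 0.998). Of 17764 other probes, 10.5% had r above 0.9 with NUDT16L1. For the detected NUDT16P1 probe the most alike were BRSK2 (r 0.88), XLOC_010685 (r 0.87) and AMIGO1 (r 0.86), and 0 probes were above 0.9. These are descriptions over 6 arrays that share slides in pairs.

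NUDT1, also called MTH1, hydrolyses oxidised purine nucleotides before they can enter DNA. Its probe A_23_P134295 (NM_198949, chromosome 7, positions 2290560 to 2290619) was detected on 6 arrays. The normalised signal was 5.65, 5.81 and 4.23 in mock, against 6.47, 6.04 and 4.27 in NUDT16 arrays. Both arrays of replicate 3 were low, and the groups overlapped. The difference was 0.36 (SE 0.72, 95% interval -1.20 to 1.92, limma adjusted p 0.999), carried by a pair difference of 0.82 in replicate 1 against 0.22 and 0.04 in the others. It turned negative with normexp, with the median shift, without scaling, without mock replicate 3 and without NUDT16 replicate 1.

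NUDT2 splits diadenosine tetraphosphate. Its probe A_23_P112478 (NM_001161, chromosome 9, positions 34343183 to 34343242) was the one member printed 10 times on each array, which gives the error of a single spot. On 5 arrays the processed intensities of its 10 spots varied by 3.29% to 7.97% (coefficient of variation), with a spot-to-spot SD of 0.047 to 0.11 on the log2 scale. On NUDT16 replicate 2 the 9 usable spots ran from 9.998 to 24.3 with a variation of 27.8% and an SD of 0.40. On that array the probe was not well above background.

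The normalised NUDT2 signal was 1.11, 0.52 and -0.57 on mock replicates 1, 2 and 3 and 1.34, 0.89 and 0.02 on NUDT16 replicates 1, 2 and 3. The order of the replicates was the same in both groups, and the groups overlapped. The SD between arrays, 0.85 in mock and 0.67 in NUDT16, was larger than the SD between spots on each of the arrays. The difference was 0.40 (SE 0.65, 95% interval -1.01 to 1.80, limma adjusted p 0.999), and it turned negative with the median shift, without scaling and without mock replicate 3.

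NUDT3 hydrolyses diphosphoinositol polyphosphates and can also remove caps from messenger RNA. Its probe A_23_P93389 (NM_006703, chromosome 6, positions 34256064 to 34256123, minus strand) read 0.996, 0.76 and 0.30 on mock replicates 1, 2 and 3 and 1.004, 0.48 and 0.54 on NUDT16 replicates 1, 2 and 3. It was not well above background on NUDT16 replicate 2, and the groups overlapped. The difference was -0.01 (SE 0.57, 95% interval -1.24 to 1.23, limma adjusted p 0.999), with an SD of 0.36 in mock and 0.29 in NUDT16, and its sign is not settled under the other settings. With the replicate block the interval was -0.73 to 0.71.

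NUDT5 hydrolyses ADP-ribose and related sugars. Its probe A_23_P1199 (NM_014142, chromosome 10, positions 12214785 to 12214844, minus strand) was detected on 6 arrays and read 3.27, 3.50 and 2.84 on mock replicates 1, 2 and 3. On NUDT16 replicates 1, 2 and 3 it read 3.29, 2.04 and 2.82. The low value was that of the dim array, and the groups overlapped. The pair differences were 0.02, -1.46 and -0.02, so the fitted difference of -0.49 (SE 0.60, 95% interval -1.78 to 0.81, limma adjusted p 0.999) rested on the pair of replicate 2. In the fit on replicates 1 and 3 alone it was 0.0020.

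**Figure D2:**
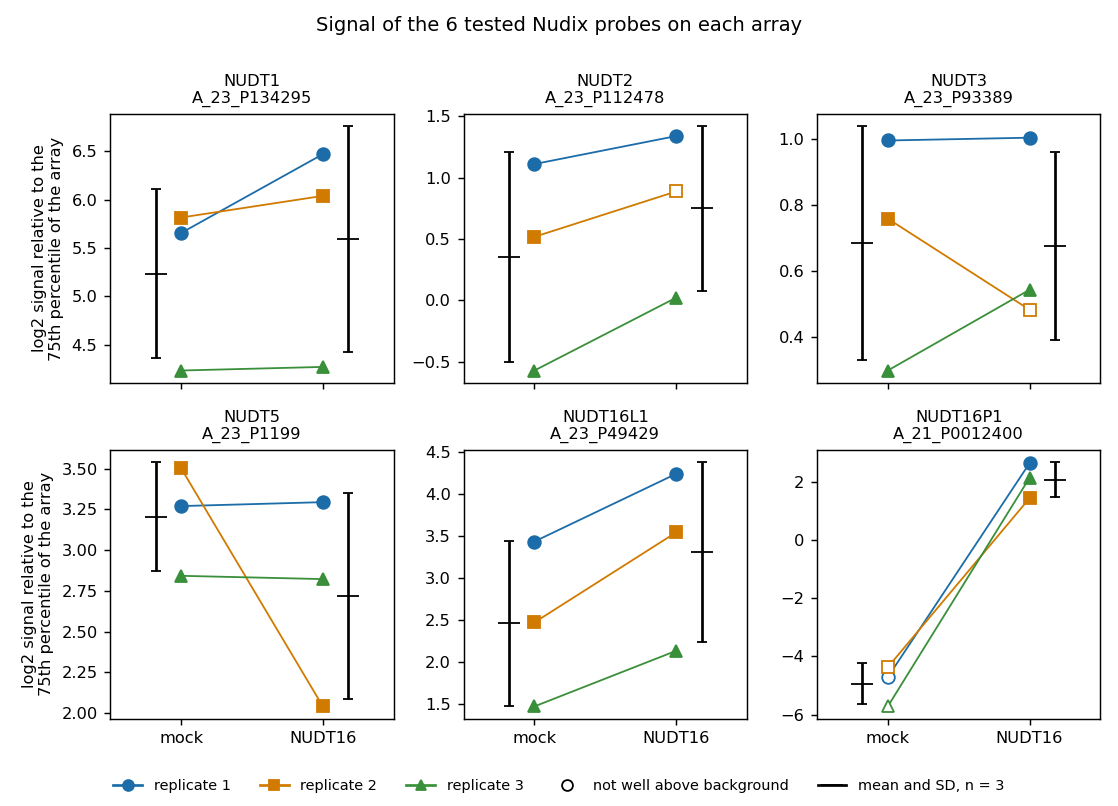
Log2 signal relative to the 75th percentile of the array for the 6 tested Nudix probes on the 3 mock and 3 NUDT16 arrays, with lines joining arrays of the same replicate number and bars giving the mean and SD (n = 3); vertical scales differ between panels. The groups overlap for NUDT1, NUDT2, NUDT3, NUDT5 and NUDT16L1, and NUDT16P1 moves from -4.94 to 2.07 with open symbols marking mock values that were not well above background.

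NUDT12, a peroxisomal enzyme that cleaves NADH and removes NAD caps from RNA, and NUDT19, a peroxisomal coenzyme A diphosphatase, gave no usable signal. NUDT12 (A_23_P259090, chromosome 5, positions 102885216 to 102885275, minus strand) had background-subtracted intensities of 1.58, 2.47 and 5.34 in mock, against -2.05, -7.26 and 9.94 in NUDT16 arrays. Its highest and lowest values were both on NUDT16 arrays, above 100% and 3.75% of the negative-control spots. NUDT19 (A_32_P93391, chromosome 19, positions 33203790 to 33203849) had 6.87, 4.96 and 8.67 in mock, against 8.97, -5.46 and 17.4 in NUDT16 arrays. On 5 arrays NUDT19 lay above at least 98% of the negative-control spots, and on NUDT16 replicate 2 above 10.9%, yet no value met the stricter criterion of being well above background.

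**Figure D3:**
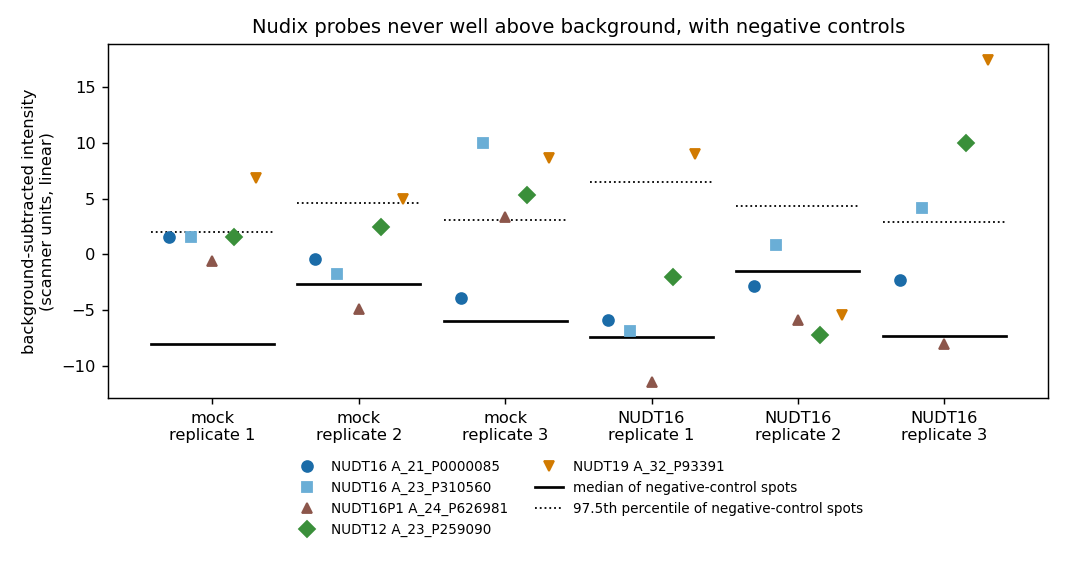
Background-subtracted intensity (linear scanner units) of the 5 Nudix probes that were never well above background, on each array; solid lines are the median of the negative-control spots, 292 to 300 per array, and 2.5% of those spots lie above the dotted lines. NUDT19 lies above the dotted line on 5 arrays and not on NUDT16 replicate 2. NUDT12 and the NUDT16 probe A_23_P310560 lie above it on replicate 3 of both groups, and NUDT16P1 A_24_P626981 on mock replicate 3. Neither NUDT16 probe is higher on the NUDT16 arrays as a group.

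The rest of the Nudix family on the array, with the decapping enzyme DCP2, showed no call. This list held 16 genes with 20 probes, of which 14 probes for 12 genes were tested. With limma 0 were called and 0 had an unadjusted p under 0.05, and the difference was above 0 for 4 probes and below 0 for 10. The list's median difference was -0.20, against -0.02 over all tested probes. The signs move with the scaling: without scaling 14 of 14 were below 0, and in that fit the median of all probes was -1.10.

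In size the largest tested difference of the list was that of NUDT6 (-1.07, 95% interval -2.47 to 0.34). Among those below 0, NUDT9 (-0.79) and the NUDT21 probes (-0.77 and -0.74) followed it. These were named after their values were seen. The pair with the dim array gave -2.72 for NUDT6, -1.99 for NUDT9 and -1.86 and -2.13 for NUDT21. Their other pairs lay between -0.42 and 0.34, and on the dim array these probes were not well above background. Detection on all 6 arrays, the dim one included, left 4 listed probes, and 4 of 4 were above 0, as were 4188 of the 6582 probes it left over the whole array. The 3 with the largest difference among the 4 belonged to NUDT8, which degrades coenzyme A in mitochondria, and NUDT22, a UDP-glucose hydrolase. The NUDT8 probes gave 1.002 (A_33_P3416503, 95% interval -0.57 to 2.58) and 0.55 (A_33_P3384932, -1.01 to 2.12), and NUDT22 gave 0.56 (-1.01 to 2.13). For A_33_P3416503 the pair differences were 0.57, 2.42 and 0.01, so the value rested mainly on the pair with the dim array. DCP2, the main decapping enzyme of cytoplasmic messenger RNA decay, had a mean of 0.29 ± 0.67 in mock arrays, while the NUDT16 arrays averaged 0.26 ± 1.13 (SD, n = 3 each). Its difference was -0.03 (95% interval -1.53 to 1.46).

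**Figure D4:**
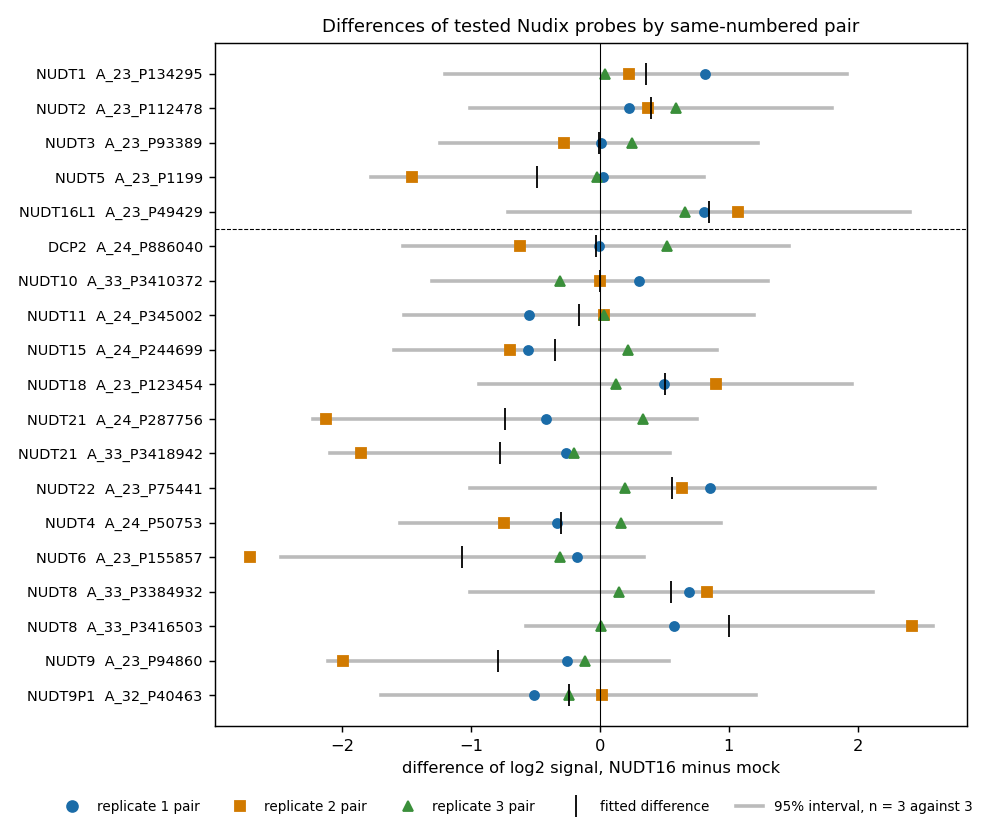
Difference of log2 signal, NUDT16 minus mock, for 5 tested Nudix members (above the dashed line) and 14 probes of the rest of the family, with coloured symbols for the same-numbered pairs, a tick for the fitted difference and a grey bar for its 95% interval (n = 3 against 3). The intervals come from the fit without the replicate block, and all 19 include 0. With the block the NUDT16L1 interval was 0.14 to 1.56 (limma adjusted p 0.482). The pair of replicate 2 lies farthest from 0 for 13 of the 19 probes.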

How the data were processed

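The members and lists were chosen with earlier results of these data known. The scanner output deposited by the authors holds a spot's intensity. Per the file headers, Agilent Feature Extraction 10.7.3.1 removed background, detrended each array and gave dim spots surrogate values, and coordinates refer to hg19. A log2 table, also deposited by the authors, served as an alternative. How it was made is not given in the sources used here, and it ranked probes as spot median less background median does (Spearman's rho 1).

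Control and outlier spots were left out, and 1 marker gene is not reported here. Log2 processed intensity was shifted by the array's 75th percentile and spots of a probe were averaged. A probe was well above background where more than 50% of its spots were, and probes so on all 3 arrays of a group were tested. Two-sided tests used limma 3.58.1 in R 4.3.3 (lmFit, eBayes). All 11 probes were matched to current symbols (RefSeq, GRCh38.p14). Of the other Nudix genes, the 3 probes with the largest difference among those detected on all arrays were named, and the 3 probes best correlated with NUDT16P1 and NUDT16L1.

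Same-numbered arrays shared slide and scan, and their deviations correlated at 0.84, 0.39 and 0.77, so the numbers pair the arrays. Alternatives were other background corrections, scalings, filters, the block, the value table and leaving out each array. After seeing the data, a paired fit on replicates 1 and 3, the block with another scaling, and the counts on neighbouring probes, G and C content and shared letters were added.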

Additional observations from a re-analysis of the deposited data

How the results depend on the processing

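The NUDT16P1 difference kept its direction under all 16 alternatives that could be computed and was called in 12. In those 12 the probe passed the filter only through the NUDT16 arrays, where it is high, so they are not independent support. The filter on all 6 arrays leaves it out by construction, being undetected in mock. Normexp gave 3.42, no scaling 5.92, testing every probe 7.001 and the authors' values 5.67, and none of these was called (limma adjusted p 0.9999, 0.91, 0.65 and 0.061; 1.2e-08 to 0.042 over the other alternatives but the fit on replicates 1 and 3). It lay between 6.61 and 7.32 with one array left out. With the replicate block it stayed called (adjusted p 0.028), and the block changed no call of a member. In these 4 fits and with the filter on all 6 arrays the count of probes changed was 0 over all probes and 0 among members, with 11, 1, 225, 10 and 2 probes at an unadjusted limma p under 0.05. One array left out gave 1 to 12 probes, the highest without NUDT16 replicate 1, and 1 among members; the replicate block on replicates 1 and 3 gave 611. The other Nudix list had 0 calls throughout. Why these moved was not tested.

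For the 5 uncalled members, 67 of 83 values kept their direction and 0 were called. The median shift turned NUDT2 to -0.31 and NUDT1 to -0.35, where all probes had a median of -0.73. Without scaling NUDT2 was -0.69, NUDT16L1 -0.24 and NUDT1 -0.73, against -1.10 for all probes. Normexp put NUDT1 at -0.31, and the authors' table put NUDT3 at 0.10. With one array left out NUDT2 ranged from -0.065 to 0.78, NUDT1 from -0.14 to 1.02, NUDT16L1 from 0.35 to 1.43, NUDT5 from -0.77 to -0.15 and NUDT3 from -0.20 to 0.15. On replicates 1 and 3 alone NUDT3 was 0.13 and NUDT5 0.0020. NUDT2 and NUDT3 were not well above background on the dim NUDT16 replicate 2, and the 5 untested member probes were detected on 0 of 6 arrays.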
